A study of Mus musculus with 25 samples.

Results

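The AP-1 transcription factor genes taken here are Fos, Fosb, Fosl1 and Fosl2 of the Fos family and Jun, Junb and Jund of the Jun family. They were chosen by name, 7 of the 18193 genes measured, and every probe set that the array annotation assigns to 1 of their symbols was used, 11 of the 45101 on the array. RAW 264.7 is an established mouse macrophage line. For 6 h they received hypochlorous acid (HOCl), an oxidant released by activated neutrophils, at 7 doses (3.5, 2.8, 2.1, 1.4, 0.7, 0.35 and 0.14 mM) or medium without it (0 mM). A separate array measured each RNA sample, 4 at 0 mM and 3 at every dose, 25 in all. The replicates are called biological in the series, without more detail, and no genetic change or further agent is given for any group. The question was how expression depends on the dose of HOCl. Every dose was set against 0 mM, and neighbouring doses against each other.

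AP-1 is a dimer. Jun proteins pair with themselves or with Fos proteins through a leucine zipper, and the pair binds DNA through a basic region that holds a cysteine sensitive to oxidation. Fos and Jun are immediate early genes: their mRNAs are made within minutes of a signal from MAP kinases and are short-lived. Fosl1 (FRA1) and Fosl2 (FRA2) lack the strong activation domain of Fos and often follow it, and in macrophages AP-1 acts beside NF-kB on inflammatory genes.

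The promoters of Fos, Fosb and Jun are shown because these genes answer the same kinds of signal. Their values by dose are described further on, and whether their dose patterns differ from each other was not tested. Each line gives the 100 bases before a transcript start on the strand of the gene, from RefSeq (build GRCm38), where 6 of the 7 genes matched an entry (not Fosl1). This start is the outer edge of the annotated gene for 5 of the 6, but for Fosb it lies 73 bases inside that edge, so most of the Fosb line is within the annotated gene. Capitals mark the core of the cyclic AMP response site, TGACG, its Jun variant TGACATCA and the TATAAA box. Fos is at chr12:85473790-85473889 (plus strand), Fosb at chr7:19310046-19310145 (minus strand) and Jun at chr4:95052223-95052322 (minus strand).
Fos: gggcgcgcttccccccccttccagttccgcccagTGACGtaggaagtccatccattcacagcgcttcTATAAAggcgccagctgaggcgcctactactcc
Fosb: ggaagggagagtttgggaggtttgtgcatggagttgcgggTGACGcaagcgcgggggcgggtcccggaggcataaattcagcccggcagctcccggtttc
Jun: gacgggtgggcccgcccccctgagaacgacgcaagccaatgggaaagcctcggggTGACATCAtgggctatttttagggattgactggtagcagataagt
This core begins 66 bases before the transcript start of Fos and 60 before the one used for Fosb, and the Jun variant 45 before that of Jun. Over the 250 bases before the start, searched on both strands, TGACG was also found in Junb, at 106, and a second time in Fos, at 129. Of 32851 windows of that length 17.8% hold TGACG, 2.93% TGACATCA and 12.4% TATAAA. The AP-1 site TGACTCA (4.46% of windows), the full site TGACGTCA (1.55%, which contains TGACG), the antioxidant core TGACNNNGC (10.2%, which can overlap TGACG) and the CArG box (1.47%) were in none of the 6 windows. Bases outside these windows, such as those further upstream, were not searched, so a site absent here may still lie near the gene. These letters are a description of the windows and not a measure of binding.

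Values are log2 signals less the median of the array, so 0 is the median probe set. A brightest probe set stood for each gene. Tests are limma's moderated tests over all 45037 probe sets that are not controls, with Benjamini-Hochberg adjustment over that table, and a gene is called where the adjusted p is under 0.05. Differences are given with the standard error (SE) of the fit, which pools the spread over all 8 doses, with n = 4 arrays at 0 mM and n = 3 at every other dose. All 10 macrophage markers of a chosen list lay above the array median, and their mean was between 5.12 and 5.82 on every array. Of these 10, 4 passed the F test over all doses, beside 24.7% of all probe sets. Fcgr1 was lower at 2.1 mM (-1.38, adjusted p = 0.0313) and rose from 2.8 to 3.5 mM (1.72, adjusted p = 0.0148), and Ptprc was lower at 2.8 mM (-0.62, adjusted p = 0.00583) and rose in that step (0.47, adjusted p = 0.0431). Spi1 was called lower at 1.4 and 2.8 mM and Adgre1 at 0.35 and 2.1 mM, while Mpeg1 and Cd14 were called higher at 0.35 mM. Of all probe sets 4.72% were called lower at 0.35 mM, 3.43% at 1.4 mM, 6.09% at 2.1 mM and 6.26% at 2.8 mM. Called higher were 1.71% at 0.35 mM and 5.59% in the step from 2.8 to 3.5 mM. The part of these changes in those of the AP-1 genes was not tested. Of 9 measured markers of other cell types 3 lay above it, with an array mean of -0.10 to 0.27. The signal of the 3 prime end of Actb exceeded that of its 5 prime end by 0.12 to 0.68 on the 7 arrays of 0 and 3.5 mM, and its mean per dose was 0.29 to 0.52. For Gapdh the same difference was 0.36 on 0 mM replicate 1 and between -0.11 and -0.01 on the other 24 arrays. Without that array Fos at 3.5 mM (1.87, adjusted p = 0.0544) and Junb at 1.4 mM (-0.94, adjusted p = 0.0529) were no longer called, and Fosl1 at 3.5 mM (-1.31, adjusted p = 0.0481) and Jund at 1.4 mM (-0.99, adjusted p = 0.0124) were. In RNA from whole cultures fewer cells and less RNA per cell cannot be told apart.

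Some arrays stood apart. The mean of 8 poly-A control probe sets, which report RNA spiked in during labelling, was at most 0.77 on 11 arrays and at least 1.33 on the other 14. The low level held every array of the lowest 2 doses, 0 and 0.14 mM, together with replicates 1 and 2 at both 0.35 and 0.7 mM, so from 1.4 mM upwards poly-A level and dose cannot be told apart in a comparison with 0 mM, except through replicate 3 of 0.35 and 0.7 mM. The step from 2.8 to 3.5 mM lies wholly within the high level. At 0 mM, replicates 2 and 4 were higher than replicates 1 and 3 for 10 of the 11 probe sets, all but the dimmer one of Jund. The gap between these pairs of arrays reached 1.68 for Fosb, 1.34 for Fosl2 and 1.09 for Jun, and it is a part of the error of every comparison of these genes with 0 mM. At 2.8 mM, replicate 1 stood far above the other arrays of its dose for Fos and Fosb.

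Over all doses the F test called 4 of the 7 genes, which are the whole Fos family: Fosl1 (adjusted p = 9.24e-05), Fos (adjusted p = 0.0017), Fosl2 (adjusted p = 0.0126) and Fosb (adjusted p = 0.0144). A second, dimmer probe set of Fosl2 did not pass the F test (adjusted p = 0.0869). Of all probe sets 24.7% were called. The Jun family did not pass, with adjusted p of 0.0599 for Junb, 0.115 for Jund and 0.198 for Jun. No member was called at 0.14, 0.35 or 0.7 mM, where 0.00444%, 6.43% (1.71% higher, 4.72% lower) and 0.133% of probe sets were. By limma without adjustment 1, 2 and 1 of the 7 genes had p under 0.05 at these doses. So did 4009, 10026 and 5136 of the 45037 probe sets. At 1.4 mM Fosl1 was higher and Junb lower, beside 4.39% of probe sets called higher and 3.43% lower (7.81% in all). At 2.1 mM Fosl1 was higher and Fos lower, beside 7.26% higher and 6.09% lower (13.4% in all). At 2.8 mM Fosl1 alone was called, higher, beside 5.64% higher and 6.26% lower (11.9% in all). At 3.5 mM Fos was higher and Fosl2, Jun and Junb were lower, beside 3.93% higher and 5.4% lower (9.32% in all). The median log2 change of the 7 genes was -0.31 at 0.14 mM, -0.69 at 1.4 mM and -0.94 at 3.5 mM, beside medians of 0.02, 0.02 and 0.08 over all probe sets. Comparisons with 0 mM share the same 4 arrays.

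**Figure D1:**
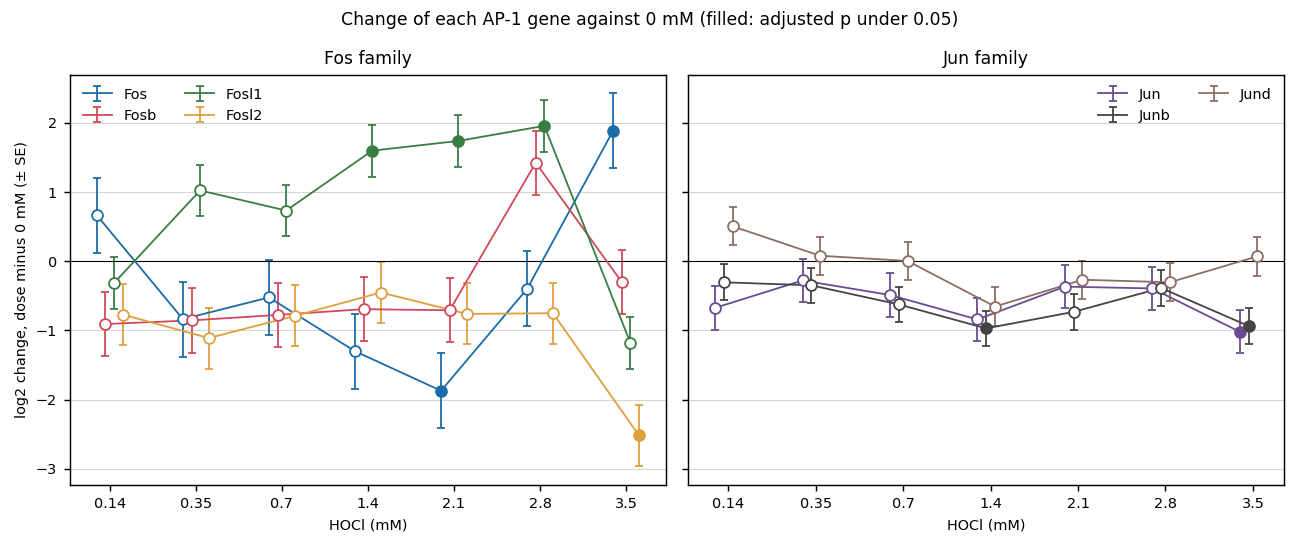
Log2 change of each AP-1 gene (y axis, dose mean minus 0 mM mean, bars are the SE of the limma fit) at each HOCl dose (x axis, mM, evenly spaced), Fos family left and Jun family right; filled points have an adjusted p under 0.05. Fosl1 lies between 1.60 and 1.96 from 1.4 to 2.8 mM and at -1.18 at 3.5 mM, while Fos goes from -1.87 at 2.1 mM to 1.89 at 3.5 mM.

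Fosl1, which encodes FRA1 (chr19:5447698-5455938 in GRCm38, as for the genes that follow), rose over the middle doses and dropped at the highest one. Its signal was 2.33, 3.25, 2.19 and 3.07 on the 0 mM arrays and 2.09, 2.56 and 2.52 at 0.14 mM. At 0.35 mM it was 4.03, 3.75 and 3.42, and at 0.7 mM 3.08, 3.51 and 3.74. Those of 0.7 mM overlapped the 0 mM arrays. At 1.4 mM it was 5.39, 3.46 and 4.07, at 2.1 mM 4.49, 4.35 and 4.51, and at 2.8 mM 4.17, 4.92 and 4.90. At 3.5 mM it fell to 2.36, 1.13 and 1.10. Every array of 0.35 mM and of 1.4 to 2.8 mM was above every 0 mM array, as were those of 6.25% of all probe sets at 0.35 mM, 11% at 1.4 mM, 16.2% at 2.1 mM and 12.7% at 2.8 mM. For Fosl1, every array of 3.5 mM was below every array of 0.35 to 2.8 mM. The share of all probe sets separated between these doses was not counted. Ordered by mean, the doses were 2.8, 2.1, 1.4, 0.35, 0.7, 0, 0.14 and 3.5 mM, and the arrays of each dose overlapped those of the next in this order.

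Against 0 mM, Fosl1 rose 3.03-fold at 1.4 mM (log2 1.60, SE 0.375, adjusted p = 0.014), 3.34-fold at 2.1 mM (log2 1.74, SE 0.375, adjusted p = 0.00469) and 3.88-fold at 2.8 mM (log2 1.96, SE 0.375, adjusted p = 0.0024). At 0.35 mM the difference was 1.02 (SE 0.375, adjusted p = 0.107), and 1.18 within the low poly-A level (adjusted p = 0.0575). The calls at 2.1 and 2.8 mM passed without any 1 of the 25 arrays. That at 1.4 mM was lost without 1.4 mM replicate 1, the highest array (log2 1.06, adjusted p = 0.0894). With poly-A level as a term the Fosl1 differences were as large, 1.61, 1.75 and 1.97, and none passed (adjusted p = 0.507, 0.259 and 0.121). Without 0 mM replicates 1 and 3 they were 1.15 (adjusted p = 0.108), 1.29 (adjusted p = 0.0501) and 1.51 (adjusted p = 0.0242). At 3.5 mM the Fosl1 difference from 0 mM was -1.18 (SE 0.375, adjusted p = 0.0524) and was not called. Its arrays of 3.5 mM overlapped those of 0 mM. A second, dimmer probe set of Fosl1 gave -0.87 there (adjusted p = 0.142). Between 2.8 and 3.5 mM Fosl1 fell by 3.14 on the log2 scale (SE 0.401, adjusted p = 6.53e-05), which is 8.8-fold lower. This step was called without any 1 array, with differences from -3.55 to -2.92.

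Fos, the founding gene of its family (chr12:85473890-85477274), ran the other way at several doses. It stood at 4.06, 4.32, 3.84 and 4.22 on the 0 mM arrays and at 4.59, 4.85 and 4.87 at 0.14 mM. At 0.35 mM it was 3.36, 2.89 and 3.56, at 0.7 mM 3.13, 3.86 and 3.76, and at 1.4 mM 2.86, 2.25 and 3.31. At 2.1 mM it was lowest, at 2.40, 2.35 and 1.96. All Fos values at 0.35, 1.4 and 2.1 mM were below every 0 mM array, as for 7.65%, 8.1% and 11.9% of probe sets, and those at 0.14 mM above, as for 4.4%. The arrays of 2.8 mM disagreed: replicate 1 had 6.09, and replicates 2 and 3 had 2.60 and 2.44. At 3.5 mM all arrays were high, at 6.09, 5.91 and 5.99, above every 0 mM array (11.9% of probe sets).

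Against 0 mM, Fos fell by 1.87 at 2.1 mM (SE 0.541, adjusted p = 0.026), which is 3.66-fold lower, and rose 3.7-fold at 3.5 mM (log2 1.89, SE 0.541, adjusted p = 0.0316). The SE holds the spread of the 2.8 mM arrays, whose SD was 2.06, against 0.09 to 0.53 at the other doses. Without 2.8 mM replicate 1 Fos was also called lower at 0.35 mM (-0.84, adjusted p = 0.023), 1.4 mM (-1.30, adjusted p = 0.00155) and 2.8 mM (-1.59, adjusted p = 0.000336). Fos was called lower at 0.35 mM within the low poly-A level too (-0.98, SE 0.22, adjusted p = 0.0382). With poly-A level as a term the Fos changes at 2.1 and 3.5 mM were -2.23 and 1.54 and did not pass (adjusted p = 0.3 and 0.282).

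Neither Fos call against 0 mM withstood every omission. The one at 2.1 mM was lost without 0 mM replicate 2 or 4 or any 1 of the 2.1 mM arrays, where the adjusted p reached 0.0979. The one at 3.5 mM was lost without any 1 of the 0 mM or 3.5 mM arrays, where it reached 0.0879. Fitted on the arrays of the compared doses alone, which leaves out the spread at 2.8 mM, both had smaller adjusted p (0.000417 and 0.00151). Without 0 mM replicates 2 and 4 the Fos differences were -1.71 (adjusted p = 0.106) and 2.05 (adjusted p = 0.065). The Fos difference kept its sign in all 25 omissions for both, from -1.96 to -1.73 at 2.1 mM and from 1.80 to 1.96 at 3.5 mM. From 2.8 to 3.5 mM Fos rose by 2.29 (SE 0.578, adjusted p = 0.0132), and by 3.48 without 2.8 mM replicate 1 (adjusted p = 1.05e-07). The call of this step was lost without 2.8 mM replicate 2 (1.73, adjusted p = 0.111) or replicate 3 (1.65, adjusted p = 0.114).

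**Figure D2:**
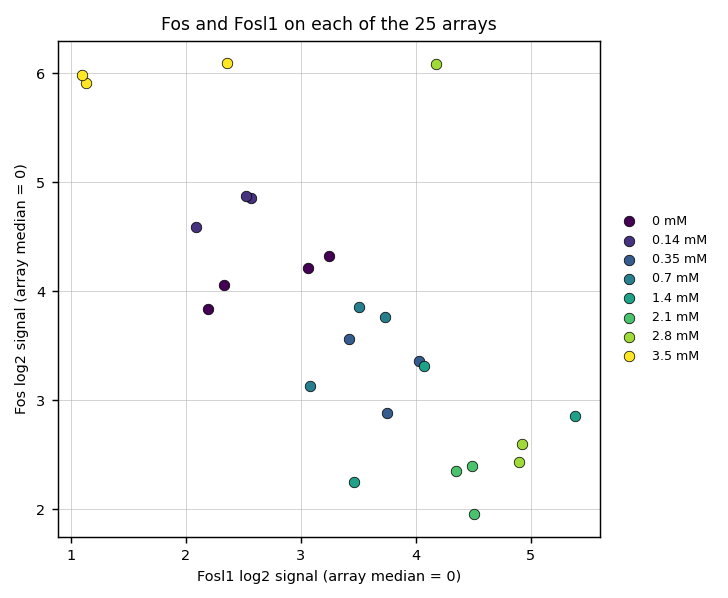
Log2 signal of Fos (y axis) against that of Fosl1 (x axis) on each of the 25 arrays, coloured by HOCl dose, both relative to an array median of 0. The 3.5 mM arrays sit at the upper left, with Fos from 5.91 to 6.09 and Fosl1 from 1.10 to 2.36, the 2.1 mM arrays at the lower right, and replicate 1 of 2.8 mM apart from both, at 6.09 and 4.17.

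Fosb, a close relative of Fos (chr7:19302696-19310118), was dim on most arrays. It lay at -1.04 and -0.92 on 0 mM replicates 1 and 3 and at 1.27 and 0.76 on replicates 2 and 4. From 0.14 to 0.7 mM its 9 values ran from -0.94 to -0.71, near the lower quartile of the arrays (-0.97 to -0.84). At 1.4 mM it was -0.07, -1.09 and -0.88, and at 2.1 mM -0.71, -0.81 and -0.56. At 2.8 mM Fosb was 2.66, 0.74 and 0.93, above every array of 0.14 to 2.1 mM, and at 3.5 mM -0.16, -0.75 and 0.05. How many probe sets had 2.8 mM arrays above all of 0.14 to 2.1 mM was not counted. Whether the low Fosb values exceed background was not measured, since the table has no detection call.

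The Fosb difference at 2.8 mM against 0 mM was 1.42 (SE 0.465, adjusted p = 0.051). It was 1.84 without 0 mM replicate 2 (adjusted p = 0.0133), 1.67 without 0 mM replicate 4 (adjusted p = 0.0387), 1.42 without 1.4 mM replicate 1 (adjusted p = 0.0472), and 2.42 without 0 mM replicates 2 and 4 (adjusted p = 0.0023). Without 2.8 mM replicate 1 it was 0.82 (adjusted p = 0.275). From 2.8 to 3.5 mM Fosb fell by 1.73 (SE 0.497, adjusted p = 0.028). That call was lost without 2.8 mM replicate 1 (-1.12, adjusted p = 0.136), 3.5 mM replicate 2 (-1.50, adjusted p = 0.119) or 3.5 mM replicate 3 (-1.90, adjusted p = 0.0551). Without 2.8 mM replicate 1 the F test of Fosb did not pass either (adjusted p = 0.0772).

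Fosl2, which encodes FRA2 (chr5:32136472-32157840), was lowest at 3.5 mM. Its brighter probe set gave 2.82, 4.34, 1.67 and 4.16 at 0 mM, the widest spread of the 4 Fos family genes there (SD 1.25). At 0.14 to 2.8 mM its 18 values lay between 1.71 and 3.46. At 3.5 mM they were 0.92, 0.64 and 0.62, below all other arrays. Of all probe sets 7.72% had 3.5 mM arrays below every 0 mM array. How many had them below all other arrays was not counted. Fosl2 fell by 2.52 against 0 mM (SE 0.441, adjusted p = 0.000949), a 5.73-fold lower signal, and the call passed without any 1 array (-3.04 to -2.16). With poly-A level as a term it was -2.93 (adjusted p = 0.0129). Fitted on the arrays of 0 and 3.5 mM alone it had an adjusted p of 0.0661. Fosl2 also fell by 1.77 between 2.8 and 3.5 mM (SE 0.471, adjusted p = 0.018). This Fosl2 step was lost without any 1 of the 2.8 mM arrays or without 3.5 mM replicate 2 or 3, with adjusted p from 0.0503 to 0.0702.

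Jun, the founding gene of the Jun family (chr4:95049036-95052222), had its highest values at 0 mM. These were 4.43, 5.64, 4.01 and 5.52, with replicates 2 and 4 above every other array. Elsewhere Jun ran from 3.46 to 4.89. At 3.5 mM it was 3.95, 3.46 and 4.23 and overlapped the lower 0 mM array. Jun fell by 1.02 at 3.5 mM (SE 0.313, adjusted p = 0.0447), but the call held in only 9 of 25 omissions of 1 array. Without 0 mM replicates 2 and 4 the Jun difference was -0.34 (adjusted p = 0.446), and with poly-A level as a term -0.97 (adjusted p = 0.241). The SD of Jun was 0.81 at 0 mM and at most 0.50 at any other dose.

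Junb, whose protein can hold back Jun itself (chr8:84976909-84978748), was called lower at 1.4 and 3.5 mM, although it did not pass the F test. It was 3.87, 4.02, 3.35 and 3.89 at 0 mM, 3.16, 3.30 and 3.01 at 0.7 mM and 3.17, 2.07 and 3.19 at 1.4 mM. At 2.1 mM it was 3.08, 3.02 and 3.05, at 2.8 mM 3.65, 3.16 and 3.37, and at 3.5 mM 2.59, 2.56 and 3.38. All Junb values of 0.7, 1.4 and 2.1 mM were below all of 0 mM, as for 3.23%, 8.1% and 11.9% of probe sets, and those of 2.8 and 3.5 mM overlapped them. Junb fell by 0.97 at 1.4 mM (SE 0.257, adjusted p = 0.0259) and by 0.94 at 3.5 mM (SE 0.257, adjusted p = 0.0256), about 1.9-fold. The Junb differences at 2.1 mM (-0.73, adjusted p = 0.0651) and 2.8 mM (-0.39, adjusted p = 0.363) did not pass. The first call was lost without 1.4 mM replicate 2 (-0.60, adjusted p = 0.162) or without 0 mM replicate 1, 2 or 4, and the second without 0 mM replicate 2 or 4 or 3.5 mM replicate 1 or 2. With poly-A level as a term the Junb differences were -0.50 and -0.47 (adjusted p = 0.727 and 0.475), and without 0 mM replicates 2 and 4 they were -0.80 and -0.76 (adjusted p = 0.117 and 0.135).

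Jund, in many cells the most steadily expressed Jun gene (chr8:70697739-70700616), was not called at any dose by its brighter probe set. At 0 mM this probe set read 3.23, 4.72, 4.33 and 4.62, replicate 1 being the lowest, and at 1.4 mM 3.89, 3.09 and 3.73. Its log2 change ran from -0.66 at 1.4 mM (SE 0.278, adjusted p = 0.155) to 0.51 at 0.14 mM (SE 0.278, adjusted p = 0.601). Without 0 mM replicate 1 the difference of Jund at 1.4 mM was -0.99 and was called (adjusted p = 0.0124). At 3.5 mM Jund read 4.06, 4.50 and 4.32, within the range of 0 mM.

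**Figure D3:**
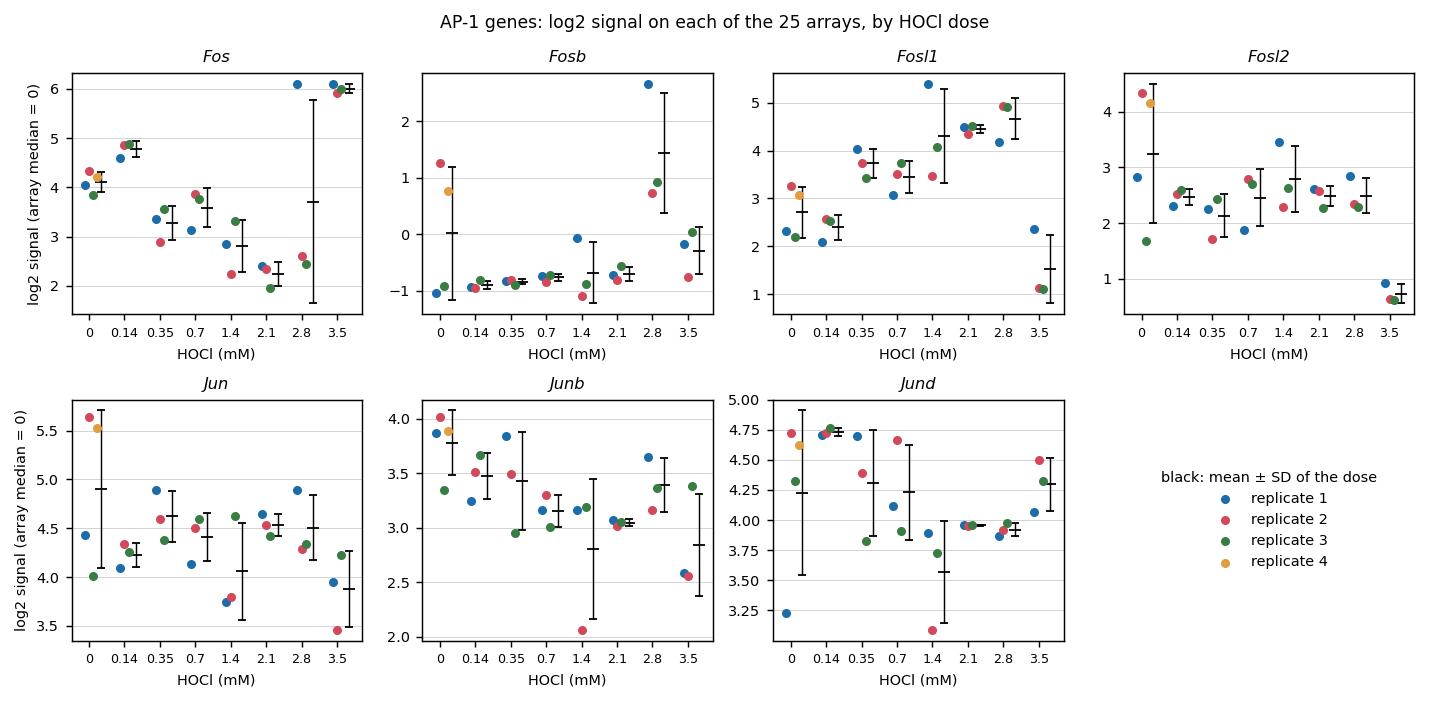
Log2 signal (y axis, array median 0, scaled separately in each panel) of the 7 AP-1 genes on the 25 arrays at 8 HOCl doses (x axis, mM, evenly spaced); coloured points are replicates and black bars the mean ± SD of the dose. Replicates 2 and 4 of 0 mM lie above replicates 1 and 3 in every panel, and Fos, Fosl1 and Fosl2 at 3.5 mM lie apart from most other doses.

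For 4 of the genes a second probe set was measured. Both probe sets of Fosl1 gave the same picture: the second probe set rose by 1.61, 1.66 and 2.00 at 1.4, 2.1 and 2.8 mM (adjusted p = 0.0119, 0.00545 and 0.00179) and fell by 2.87 from 2.8 to 3.5 mM (adjusted p = 0.000117). Relative to 0 mM the 2 readings of Fosl1 differed by a root mean square of 0.28 over the 25 arrays. For Fosl2 they differed by 1.22: the dimmer probe set stood at 1.51 at 0 mM and 1.55 at 3.5 mM (difference 0.04, SE 0.177, adjusted p = 0.921), so the drop was seen by the brighter one only. The dimmer probe set of Jun was -0.39 at 3.5 mM (SE 0.355, adjusted p = 0.519), against -1.02 for the brighter one. The dimmer one of Jund rose by 0.37 at 3.5 mM (SE 0.112, adjusted p = 0.0403) from -0.27 to 0.10, and the brighter one differed by 0.07 (adjusted p = 0.9). Where on the transcripts these probe sets lie was not analysed here.

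**Figure D4:**
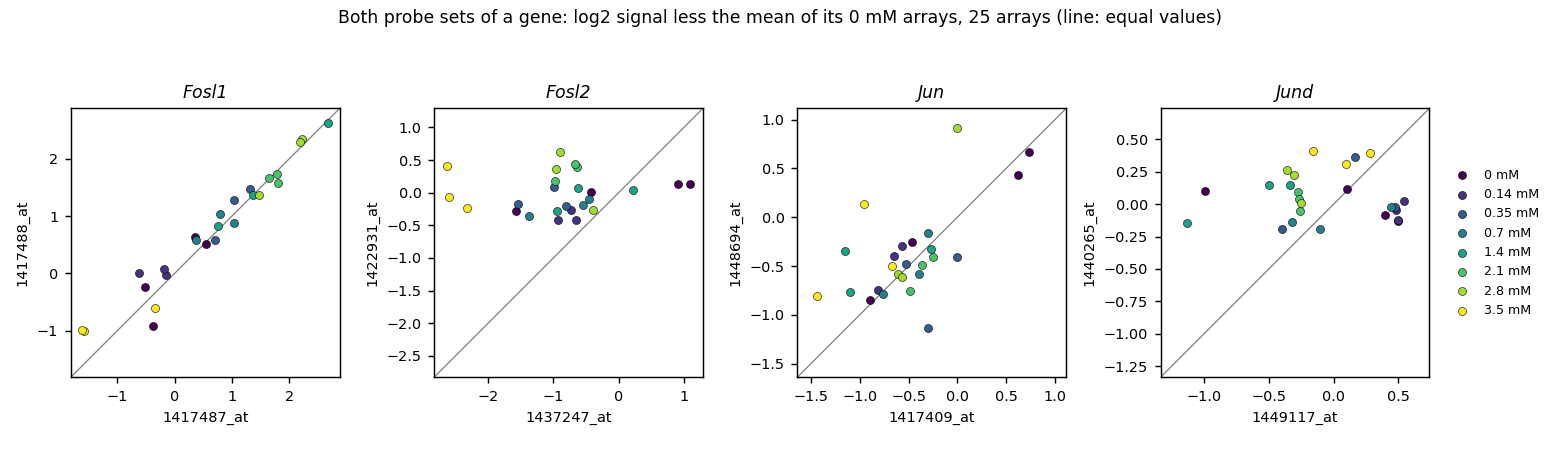
Log2 signal of both probe sets of Fosl1, Fosl2, Jun and Jund on the 25 arrays, each less its own 0 mM mean (x axis, brighter probe set; y axis, dimmer one; grey line, equal values; colour, HOCl dose in mM). The points of Fosl1 follow the line, with a root mean square difference of 0.28, while for Fosl2 the 3.5 mM arrays are low on the x axis alone.

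Of the 6 steps between neighbouring doses above 0.14 mM, the last one alone had calls among these genes. From 2.8 to 3.5 mM Fos rose and Fosb, Fosl1 and Fosl2 fell, so all 4 Fos family genes were called, beside 5.59% of probe sets higher and 5.66% lower (11.2% in all). Jun, Junb and Jund were not, with differences of -0.63, -0.55 and 0.38 (adjusted p = 0.285, 0.246 and 0.526). The dimmer probe set of Fosl2 was not called at this step either (-0.20, adjusted p = 0.612). The differences at this step come from no 0 mM array and from arrays of 1 poly-A level, although their SE pools the spread of all arrays. From 0.14 to 0.35 mM Fos and Fosl1 moved apart, with differences of -1.50 and 1.34 that did not pass (adjusted p = 0.186 and 0.0718; 3.37% of probe sets called). From 2.1 to 2.8 mM Fosb differed by 2.13 (adjusted p = 0.227; 0.0244% called). At the steps from 0.35 to 0.7, 0.7 to 1.4 and 1.4 to 2.1 mM limma called 0 of 45037 probe sets, of which 2990, 4025 and 1343 had an unadjusted p under 0.05.

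Other proteins with a basic zipper can replace Fos or Jun in the dimer, and 11 of 12 listed were measured, of which 4 passed the F test, beside 24.7% of all probe sets. Against 0 mM 2 were higher at 0.35 mM, 1 at 2.1 mM and 3 at 2.8 mM, beside 1.71%, 7.26% and 5.64% of probe sets, and 1 was lower at 3.5 mM, beside 5.4%. From 2.8 to 3.5 mM 3 fell, beside 5.66% of probe sets. Mafk, a small Maf protein that also pairs with NRF2, rose by 0.90 at 2.8 mM (SE 0.203, adjusted p = 0.00692), then fell by 1.80 to the next dose (SE 0.217, adjusted p = 3.65e-05). Atf7 rose by 0.83 at 2.1 mM (adjusted p = 0.00658) and fell by 0.68 from 2.8 to 3.5 mM (adjusted p = 0.0327), and Batf2, an interferon-induced partner of Jun proteins, rose by 0.77 at 0.35 mM (adjusted p = 0.0171). Atf3, a stress-induced partner of Jun, was not called at any dose, its change running from -0.92 at 0.14 mM to 0.32 at 2.8 mM (SE 0.504).

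The serum response factor Srf and its cofactors regulate Fos, and all 6 listed genes were measured. Of these 5 passed the F test (24.7% of probe sets). Against 0 mM 2 were lower at 1.4 mM, 1 at 2.1 mM, 2 at 2.8 mM and 3 at 3.5 mM. Over all probe sets 3.43%, 6.09%, 6.26% and 5.4% were lower at these doses. The number of listed genes called higher was 0 at every dose. Of all probe sets 4.39% were higher at 1.4 mM, 7.26% at 2.1 mM, 5.64% at 2.8 mM and 3.93% at 3.5 mM. In the step to 3.5 mM from 2.8 mM 2 fell, beside 5.66% of probe sets. Elk4, a ternary complex factor on the Fos promoter, was the clearest: it fell by 1.73 at 3.5 mM against 0 mM (SE 0.129, adjusted p = 6.41e-08) and by 1.61 against 2.8 mM (adjusted p = 8.44e-07). Fos had its highest mean at 3.5 mM, but also read 6.09 on 2.8 mM replicate 1. Mrtfb fell by 1.35 at 3.5 mM (SE 0.201, adjusted p = 0.000209) and Elk3 by 0.83 at 2.8 mM (adjusted p = 0.014). Srf itself was lower at 1.4 mM (-0.86, SE 0.184, adjusted p = 0.00838) and -0.40 at 3.5 mM (adjusted p = 0.181).

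Of the MAP kinase cascade, which phosphorylates Jun and the Fos activators, 10 of 13 listed genes were measured and 7 passed the F test (24.7% of probe sets). Against 0 mM 1 was higher and 1 lower at 0.35 mM, 1 lower at 1.4 mM, 1 higher and 2 lower at 2.1 mM, 1 higher and 3 lower at 2.8 mM and 1 lower at 3.5 mM, and from 2.8 to 3.5 mM 2 rose and 1 fell. Of all probe sets 4.72% were lower at 0.35 mM, 3.43% at 1.4 mM, 6.09% at 2.1 mM, 6.26% at 2.8 mM and 5.4% at 3.5 mM. Those called higher were 1.71% at 0.35 mM, 7.26% at 2.1 mM and 5.64% at 2.8 mM. In the step from 2.8 to 3.5 mM 5.59% rose and 5.66% fell. Map3k5 (ASK1), a kinase held inactive by reduced thioredoxin, fell by 1.60 at 2.8 mM (SE 0.229, adjusted p = 0.000284) and rose by 0.86 from there to 3.5 mM (adjusted p = 0.0264). Map3k1 fell by 1.37 at 2.8 mM (SE 0.226, adjusted p = 0.000803) and rose by 0.86 in the same step (adjusted p = 0.0245). Mapk9 (JNK2) rose by 0.71 at 2.1 mM (adjusted p = 0.00375), whereas Mapk8 (JNK1) was not called at any dose, with changes from 0.08 at 0.14 mM to 0.37 at 1.4 mM (SE 0.172).

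Of 6 genes that shorten the life of Fos or Jun mRNA or protein, 3 fell from 2.8 to 3.5 mM and 0 rose. The rest differed by 0.03 to 0.41 without passing. Of all probe sets 5.66% fell and 5.59% rose in this step. Against 0 mM 1 was higher at 2.1 mM (7.26% of probe sets) and 1 lower at 3.5 mM (5.4%), and 3 of 6 passed the F test (24.7%). Fbxw7, which marks Jun for breakdown, fell by 1.32 (SE 0.136, adjusted p = 7.75e-06), and was also lower at 3.5 than at 0 mM (-1.30, adjusted p = 2.1e-06). Zfp36 (tristetraprolin), which destabilizes AU-rich mRNAs such as that of Fos, fell by 1.28 (adjusted p = 0.0265), and its relative Zfp36l2 by 1.04 (adjusted p = 0.04). Neither was called against 0 mM at 3.5 mM, where Zfp36 differed by -0.84 (adjusted p = 0.127) and Zfp36l2 by -0.35 (adjusted p = 0.482).

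Of 12 known AP-1 target genes 11 were measured and 5 passed the F test (24.7% of probe sets). Against 0 mM 3 were higher at 0.35 mM, 1 at 1.4 mM, 3 at 2.1 mM, 2 at 2.8 mM and 0 at 3.5 mM, with 0 lower at any of the 7 doses. Of all probe sets 1.71%, 4.39%, 7.26%, 5.64% and 3.93% were higher at 0.35, 1.4, 2.1, 2.8 and 3.5 mM. At the same doses 4.72%, 3.43%, 6.09%, 6.26% and 5.4% were lower. From 0.14 to 0.35 mM 4 targets rose, where 3.37% of probe sets were called in either direction. From 2.8 to 3.5 mM 2 targets fell, beside 5.66% of probe sets. Plaur, the urokinase receptor, rose by 2.25 at 0.35 mM (SE 0.477, adjusted p = 0.0115), by 2.48 at 2.1 mM (adjusted p = 0.00224) and by 2.25 at 2.8 mM (adjusted p = 0.00475), and at 3.5 mM was at -0.11 (adjusted p = 0.912). Hbegf, an EGF receptor ligand, rose by 3.14 at 2.8 mM (SE 0.421, adjusted p = 0.000178) and fell by 2.42 in the next step (adjusted p = 0.0017). Ccnd1, cyclin D1, passed the F test (adjusted p = 0.00752) but no single dose, with its lowest difference at 3.5 mM (-0.72, adjusted p = 0.0742). The median change of the list from 2.8 to 3.5 mM was -0.61, and that of all probe sets was 0.04.

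Among 11 other immediate early genes 5 passed the F test (24.7% of probe sets). Against 0 mM 1 was higher and 2 lower at 0.35 mM and again at 2.1 mM, 1 was higher and 1 lower at 2.8 mM, and 1 was higher at 3.5 mM. Of all probe sets 1.71% were higher and 4.72% lower at 0.35 mM, 7.26% and 6.09% at 2.1 mM, 5.64% and 6.26% at 2.8 mM, and 3.93% higher at 3.5 mM. Arc, a synaptic immediate early gene, rose by 2.66 at 2.8 mM (SE 0.428, adjusted p = 0.000697) and fell by 2.18 to 3.5 mM (adjusted p = 0.00406). Fosb also had its highest mean at 2.8 mM and fell in that step, but was not called at 2.8 against 0 mM (adjusted p = 0.051). Klf4, a zinc finger factor, rose by 2.79 at 3.5 mM (SE 0.697, adjusted p = 0.0147), the dose at which Fos was highest. Ier3, an inhibitor of cell death, rose by 1.53 at 0.35 mM (adjusted p = 0.048) and by 1.77 at 2.1 mM (adjusted p = 0.0133).

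The genes most like each called member were sought by the root mean square difference of log2 profiles over the 25 arrays, each set to a 0 mM mean of 0. For Fosl1 they were Eaf1 (0.39), Naa30 (0.52) and Blcap (0.52), against 1.30 for Fosl1 from a flat line. Those of Fosb were Chka (0.45), Ccnl1 (0.53) and Csrnp1 (0.55), against 0.96. For Fosl2 they were Ago2 (0.50), Nktr (0.52) and Rbm39 (0.56), against 1.22. The nearest to Fos, Dscc1 (0.68), Cenpk (0.69) and Tcf19 (0.69) against 1.28, followed it less closely. These profiles share arrays and doses, so the figures are descriptions.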

How the data were processed

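The authors deposited log2 signals, 1 value per probe set and array. Per the series' design text, labelled cRNA was made with a one-cycle kit and intensities were extracted with Array Assist. RMA is named in the submitters' processing notes, without its settings. The base of the logarithm is not stated and was inferred as 2 from the span of the values (-2.65 to 8.74); folds rest on it. Each array has a median of 0.

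Of 45101 probe sets 64 controls were set aside and no filter on signal was applied. Symbols came from the platform annotation (34945 probe sets with 1 symbol). The test was limma 3.58.1 (R 4.3.3), with 8 dose means estimated from the 25 arrays together (17 residual and 2.99 prior degrees of freedom, two-sided), and its script was tested on simulated data. The number of arrays limits precision. Named genes were all members, up to 3 genes past the F test per list, in order of p, Atf3, Srf, Mapk8 and Zfp36, and the 3 nearest profiles of each called member. Members, lists, tests and alternatives were chosen with earlier results of these data known. Some listed genes were not analysed here. The lists are 12 partners, 6 genes of Srf and its cofactors, 13 kinases, 6 turnover genes, 12 targets, 11 immediate early genes and 2 marker lists.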

Additional observations from a re-analysis of the deposited data

How the results depend on the processing

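No difference that was called, either in the reported fit or under an alternative run, had the opposite sign in the other. Against 0 mM the counts of AP-1 genes called were 0 at each of the lowest 3 doses, 2 at 1.4 and 2.1 mM, 1 at 2.8 mM and 4 at 3.5 mM, with 4 by the F test and 4 at the steps between neighbouring doses. Without any 1 array they ranged from 0 to 1 at 0.35 mM, 0 to 0 at 0.14 and 0.7 mM, 1 to 3 at 1.4 mM, 1 to 4 at 2.1 mM, 1 to 2 at 2.8 mM, 1 to 5 at 3.5 mM, 3 to 6 by the F test and 2 to 5 at the steps. The replicate block, with replicate number as a term, left 1 call at each of 1.4, 2.1 and 3.5 mM and changed no other count by over 1.5 times. The numbers gave no clear sign of pairing. In 19 of 84 pairs of equally numbered arrays the deviations from the dose means correlated above 0.1 (median -0.03, range -0.70 to 0.56). Differently numbered arrays were not compared in this way, so pairing of some arrays remains possible. Poly-A level as a term left 0, 0, 0 and 1 calls at 1.4, 2.1, 2.8 and 3.5 mM, and the low level alone gave 1 at 0.35 mM. Array weights gave 3, 5, 5, 7, 7 and 5 calls from 0.14 to 2.8 mM, 7 by the F test and 14 at the steps, and their estimation stopped before convergence. Fitting only the arrays compared left 1 call at 1.4 and 1 at 3.5 mM. Quantile normalization and the trended, robust prior each gave 2 at 2.8 mM, where Fosb joined Fosl1. Leaving out dim probe sets, which removes Fosb, and other choices of probe set kept every count within 1.5 times. After seeing the data, 0 mM replicates 2 and 4 were left out together, giving 1, 1, 2 and 1 calls at 1.4, 2.1, 2.8 and 3.5 mM, and replicates 1 and 3, giving 3, 3, 3, 5, 4 and 4 from 0.14 to 2.8 mM. The cause of these differences was not tested beyond the arrays and terms named.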
